A study of Mus musculus with 24 samples.

Results

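HOX genes were followed across the cultures of this series, which sequenced poly(A)-selected RNA of mOSE cells in culture, the mouse ovarian surface epithelium that wraps the ovary in 1 cell layer. The members were taken by name: every row of the 3 deposited expression tables whose gene symbol is Hox, a cluster letter from a to d and a number. That rule gave 40 rows in each table for 39 genes, of 35687 rows in the monolayer and spheroid table and 35688 rows in each of the Snail and BRCA1 tables. The 39 genes are 11 in HoxA, 10 in HoxB, 9 in HoxC and 9 in HoxD. Hoxd4 has 2 rows, ENSMUSG00000101174 and ENSMUSG00000115956, of which the second is not in the GENCODE M21 annotation. Reads could be split between the Hoxd4 rows and the overlapping Hoxd3 gene. The annotated span of Hoxc5 also covers Hoxc6, Hoxc8, Hoxc9 and part of Hoxc10, and that of Hoxa3 covers Hoxa4, Hoxa5 and Hoxa6. Reads could be split there too, so the values of all these genes are uncertain.

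The 24 libraries form 8 groups of 3. In the line m1102, TGFB1 spheroids came from cells given 10 ng/mL of the cytokine TGFB1 for 4 days and then moved to ultra low attachment plates, untreated spheroids went to such plates without TGFB1, TGFB1 monolayers were attached cells with 10 ng/mL TGFB1, and untreated monolayers were attached cells without it. In the same line, Snail libraries carried a lentiviral construct for Snail, the transcription repressor encoded by Snai1, and WPI vector libraries carried the lentiviral control. In a separate line named mOSE_BRCA1_fl, from mice with floxed Brca1, libraries labelled BRCA1_ko received an adenovirus with Cre recombinase and libraries labelled BRCA1_wt one with GFP. All groups were grown in the same serum medium with EGF.

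HOX genes encode homeodomain transcription factors that give cells their position along the head-to-tail axis. In mammals they lie in 4 clusters, and genes at one end of a cluster (low paralog numbers) are active earlier and further forward in the embryo than genes at the other end, a rule called collinearity. Adult cells often keep the HOX pattern of the place they came from. In the female tract, Hoxa9, Hoxa10, Hoxa11 and Hoxa13 mark successive segments of the Mullerian duct, from oviduct through uterus to cervix and vagina. On GRCm38 HoxA lies on chromosome 6, and the other clusters at chr11:96194316-96368256 (HoxB), chr15:102921103-103036852 (HoxC) and chr2:74668310-74765142 (HoxD), and all 39 genes are annotated as protein-coding.

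The sequence just before the gene start is shown for 3 members on which the results below turn, because one fell with spheroid culture and the other two were higher with spheroid culture or TGFB1. Each is the 250 bases before the start from RefSeq, build GRCm38.p6, plus strand, Hoxd8 at chr2:74704365-74704614, Hoxb4 at chr11:96318017-96318266 and Hoxb8 at chr11:96281655-96281904. Capitals mark a CAGAC SMAD box (the short motif bound by SMAD proteins, which carry the TGFB1 signal) or the TGATNNAT motif of PBX-HOX pairs, found on either strand.
Hoxd8: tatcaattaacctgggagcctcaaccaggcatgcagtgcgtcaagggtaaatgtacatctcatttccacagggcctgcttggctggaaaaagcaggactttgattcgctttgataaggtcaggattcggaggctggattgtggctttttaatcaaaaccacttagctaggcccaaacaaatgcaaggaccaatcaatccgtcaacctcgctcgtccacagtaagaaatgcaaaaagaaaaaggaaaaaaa
Hoxb4: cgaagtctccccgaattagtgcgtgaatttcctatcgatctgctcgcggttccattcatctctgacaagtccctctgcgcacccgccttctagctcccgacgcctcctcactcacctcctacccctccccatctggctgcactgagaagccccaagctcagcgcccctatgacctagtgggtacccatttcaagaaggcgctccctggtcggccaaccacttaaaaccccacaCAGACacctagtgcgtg
Hoxb8: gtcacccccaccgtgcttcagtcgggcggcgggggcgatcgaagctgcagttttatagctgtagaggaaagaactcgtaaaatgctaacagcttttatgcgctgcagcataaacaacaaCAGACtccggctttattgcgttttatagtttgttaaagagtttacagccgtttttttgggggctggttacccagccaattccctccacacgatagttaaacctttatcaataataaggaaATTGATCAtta
The Hoxd8 window held none of the motifs searched. The Hoxb4 window held a SMAD box 17 bases before the start, and the Hoxb8 window held a SMAD box 131 bases and a PBX-HOX motif 11 bases before it. RefSeq windows were matched for 22 of the 39 genes, as 24 windows. The SMAD box was in 29.2% of those 24 windows, against 42.2% of 32851 mouse promoter windows of the same length, and the PBX-HOX motif in 16.7%, against 7.7%. The MEIS motif TGACAG was in 8.3% of the HOX windows, against 15.9% of all, and the Snail E-box CAGGTG in 0.0%, against 17.2%. HOX windows held a median of 12.5 CpG dinucleotides (2 to 35), against 6.0 over all windows. A match of letters is a description and does not show binding.

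Before the results, the libraries differed in ways that touch them. All monolayer libraries, and no spheroid library, are titled as re-analysed from earlier data, so culture and origin cannot be told apart, and the labels point untreated monolayers 1 and 2 to 1 earlier sample, although their values differ. Whether the 3 libraries of a group came from different cultures is not stated, so the p-values reflect only how these libraries vary, which may be technical. The deposited values are TPM scaled by the authors, called scaled TPM here, with library sums of 955433 to 1166750 (monolayer and spheroid), 983449 to 1021030 (Snail) and 796668 to 1810670 (BRCA1). The depth is unknown, so no counting interval is given, and the tables were normalized separately, so levels are not tested between them. Snai1 was at 234, 195 and 193 scaled TPM in Snail libraries, against 13.7, 10.1 and 9.81 in WPI vector libraries. Brca1 was at 5.34, 11.1 and 4.09 scaled TPM in libraries labelled BRCA1_ko, against 4.27, 12.3 and 3.66 in libraries labelled BRCA1_wt, so its gene-level sum did not separate them, and such a sum need not show loss of the floxed part. Epithelial Epcam and oviductal Wfdc2 were at 0 in all m1102 libraries, and the summed level of 10 ovarian surface and mesothelial markers was 2187 to 2314 in untreated monolayers. Leukocyte markers summed to at most 1.47 in m1102 libraries.

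A few genes of the middle paralogs carried much of the HOX signal in the m1102 line (mean level of HOX genes by cluster and number): the 3 highest genes held 45.1% to 65.9% of the summed HOX level in the monolayer and spheroid libraries. In untreated monolayers Hoxd8, a patterning gene of the trunk, was highest at 155 ± 1.95 scaled TPM (SD, n = 3 here and below), ahead of Hoxc8, which patterns thoracic vertebrae, at 145 ± 2.47, and their libraries did not overlap. Hoxc6 followed at 67.6 ± 4.24, Hoxb9 at 42.4 ± 5.45 and Hoxb7 at 21.4 ± 0.30. The next genes in the order, Hoxa10 (18.1 ± 1.51) and Hoxb8 (16.2 ± 1.70), overlapped in range, and Hoxd4 (15.4 ± 3.29 for ENSMUSG00000101174) overlapped with both Hoxc9 (14.5 ± 0.644) and Hoxd3 (12.6 ± 0.930). Paralogs 4 to 8 made up 79.6% ± 0.938 of the summed HOX level, paralogs 9 to 13 15.8% ± 0.715 and paralogs 1 to 3 4.62% ± 0.277. Of the Mullerian duct genes, Hoxa10 was thus the one present at a clear level: Hoxa9 was at 0.491, 0.929 and 0.966, Hoxa11 was listed at 0, and Hoxa13 was at most 0.110 in the same libraries.

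**Figure D1:**
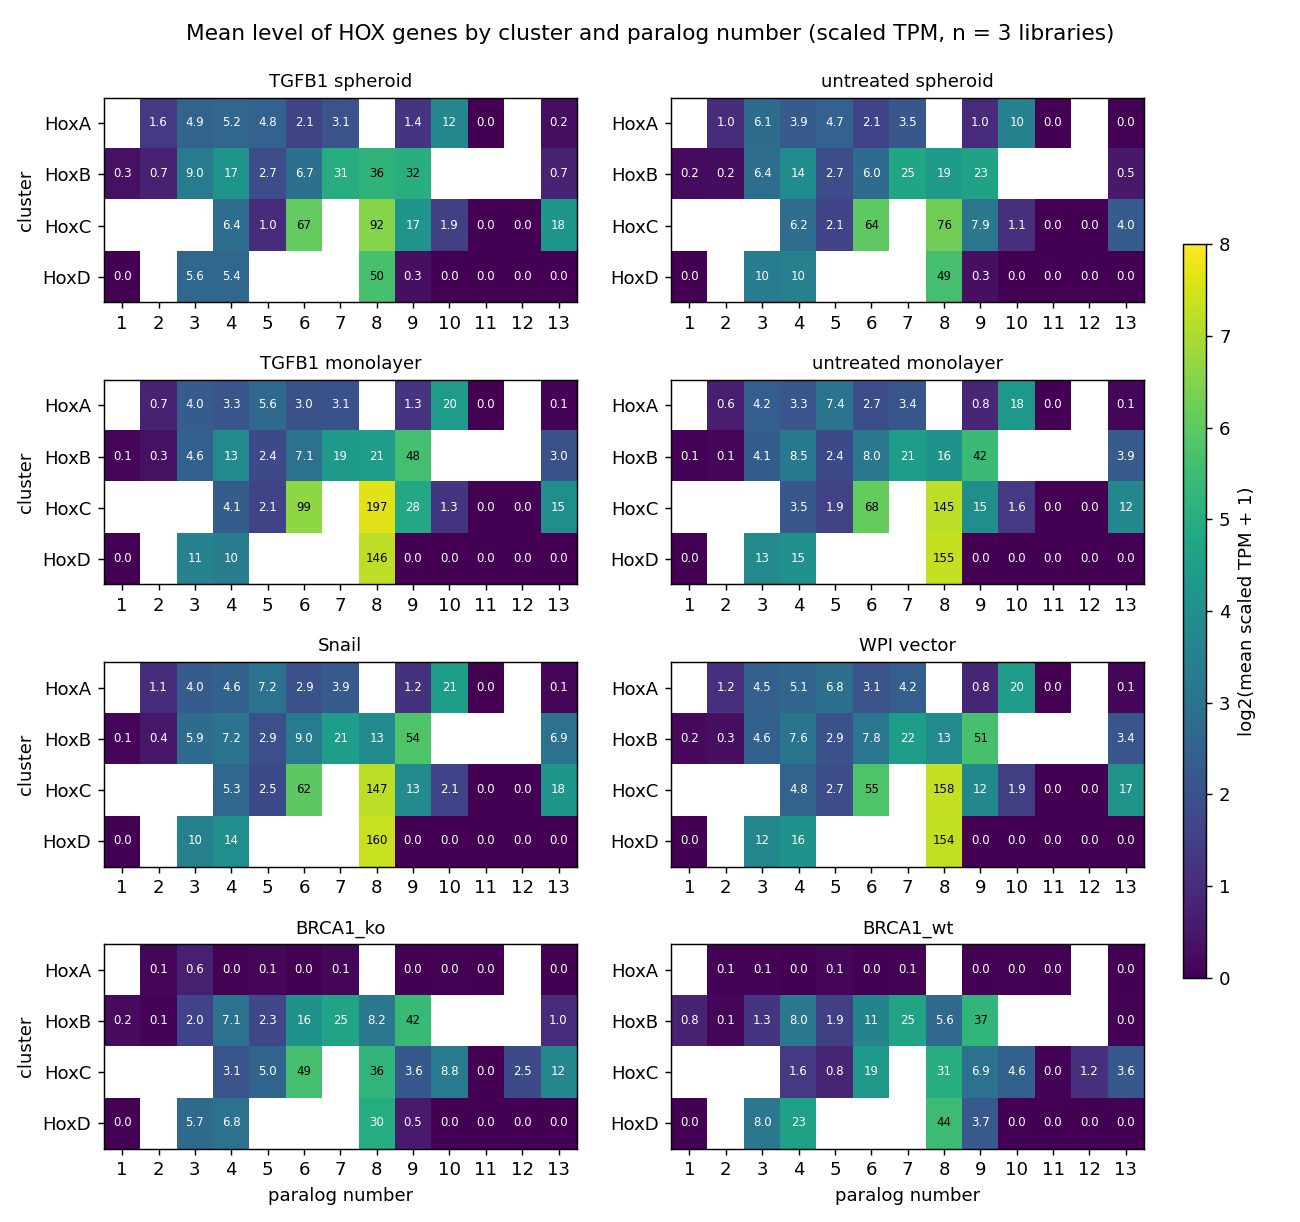
Mean scaled TPM of HOX genes (3 libraries per group) by cluster (rows) and paralog number (columns), printed in each square and coloured on a log2(mean + 1) scale; white marks a position with no value shown, and Hoxd4 is the row ENSMUSG00000101174. In m1102 cells Hoxc8 and Hoxd8 stand out (145 and 155 in untreated monolayers), and in both mOSE_BRCA1_fl groups the HoxA row is below 1.

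Of the 40 rows, 28 rows for 27 genes reached 1 scaled TPM in at least 3 of the 12 monolayer and spheroid libraries and were tested. The other 12 were Hoxa11, Hoxa13, Hoxb1, Hoxb2, Hoxc11, Hoxc12, Hoxd1, Hoxd9, Hoxd10, Hoxd11, Hoxd12 and Hoxd13, with a highest value of 0.768 (Hoxb2 in a TGFB1 spheroid), and Hoxa11, Hoxc11, Hoxc12, Hoxd10 and Hoxd12 were listed at 0 in all 12. Hoxc13 and Hoxb13, the far ends of HoxC and HoxB, were the only posterior genes beyond paralog 10 that were tested. Hoxb13, best known from prostate and tail bud, stood at 3.92 ± 0.258 in untreated monolayers, and Hoxc13, a regulator of hair keratins, at 11.9 ± 1.46.

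Several posterior and HoxD genes were lower in untreated spheroids than in untreated monolayers. Hoxb13, Hoxd8 and Hoxc13 fell most, to levels 8.28-fold, 3.18-fold and 2.98-fold below those of untreated monolayers by the ratio of means. Hoxc8, Hoxb9, Hoxc9, Hoxa10 and Hoxa5 also fell, while Hoxb4 and Hoxb3 rose. With limma on log2(scaled TPM + 1), 2 tested HOX rows were higher and 11 lower in untreated spheroids than in untreated monolayers at a Benjamini-Hochberg adjusted p under 0.05 (13 of 28). Over all 13509 tested genes 55.2% were called, 27.6% as higher and 27.7% as lower, against 46.4% of the HOX rows, 7.14% and 39.3%, so the share of tested HOX rows called did not stand above that of all genes. The groups did not overlap for 21 of 28 HOX rows, against 65.3% of all tested genes. The median log2 difference was -0.26 over the tested HOX rows and 0.006 over all tested genes. Among paralogs 9 to 13, 5 of 7 tested rows were lower and 0 higher (median -0.81), among paralogs 4 to 8, 5 of 16 lower and 1 higher (median -0.07), and among paralogs 1 to 3, 1 of 5 each way (median 0.35). Of the untested posterior genes, Hoxd9 went the other way, at 0.203, 0.265 and 0.290 in untreated spheroids, against 0, 0.0284 and 0 in untreated monolayers. In the authors' deposited table its coefficient was 3.58 on the log2 scale (deposited q-value 0.000166, over all terms of that model at once). Hoxb13 reached 1 scaled TPM only in monolayers and so entered the test through them. In bulk RNA, fewer cells of a type and less RNA per cell cannot be told apart.

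Spheroid culture after TGFB1, set against TGFB1 monolayers, gave 6 tested HOX rows higher and 11 lower (17 of 28), with 51.9% of all genes called (25.3% higher, 26.5% lower). The groups did not overlap for 17 of 28 HOX rows, against 59.4% of all tested genes. The HOX median was -0.13 and that of all genes 0.004. In HoxB, Hoxb3, Hoxb4, Hoxb7 and Hoxb8 were higher and Hoxb9 and Hoxb13 lower, while Hoxb5 and Hoxb6 were not called. In HoxC and HoxD no tested row was called higher, and 4 of 7 and 3 of 4 were lower. These groups are separate libraries from the untreated ones. Markers moved with culture: all 9 tested ovarian surface and mesothelial markers were lower in untreated spheroids than in untreated monolayers (list sums 237 to 433, against 2187 to 2314), and 7 of 9 were lower in TGFB1 spheroids than in TGFB1 monolayers (218 to 439.5, against 1129 to 1489), with none of the 10 at 0 in every library of a group. Both tested granulosa and theca markers, Inha and Foxl2, were higher in untreated spheroids than in untreated monolayers (sums 64.9 to 68.2, against 33.0 to 37.0), with Fshr at 0. Of 3 tested oviduct markers Pax8 and Ovgp1 were higher in untreated spheroids (sums 6.08 to 19.9, against 2.21 to 4.19 in untreated monolayers), and of the oocyte markers Gdf9 was higher and Ddx4 lower (sums 1.59 to 2.51, against 10.2 to 23.8), with Dazl at 0. Of 5 tested stroma markers Thy1 and Dcn were lower in untreated spheroids (sums 369 to 529, against 1644 to 1871 in untreated monolayers), and of 2 tested endothelial markers Cdh5 was higher (sums 1.76 to 5.61, against 0.997 to 1.24). Pax8, Gdf9 and Cdh5 reached 1 scaled TPM only in spheroids, and Ddx4 only in monolayers, so each entered the test through that culture. In TGFB1 spheroids against TGFB1 monolayers, Cdh5 was again higher (endothelial sums 25.8 to 52.3, against 1.63 to 1.85), Pdgfrb was higher and Thy1 lower (stroma sums 532 to 1327, against 826 to 862). Pdgfrb reached 1 scaled TPM in TGFB1 spheroids and otherwise only in TGFB1 monolayer 1, so it entered the test through TGFB1 spheroids. Foxl2, Pax8 and Ovgp1 were also higher and Ddx4 lower in TGFB1 spheroids than in TGFB1 monolayers. Their part in the HOX results was not tested.

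**Figure D2:**
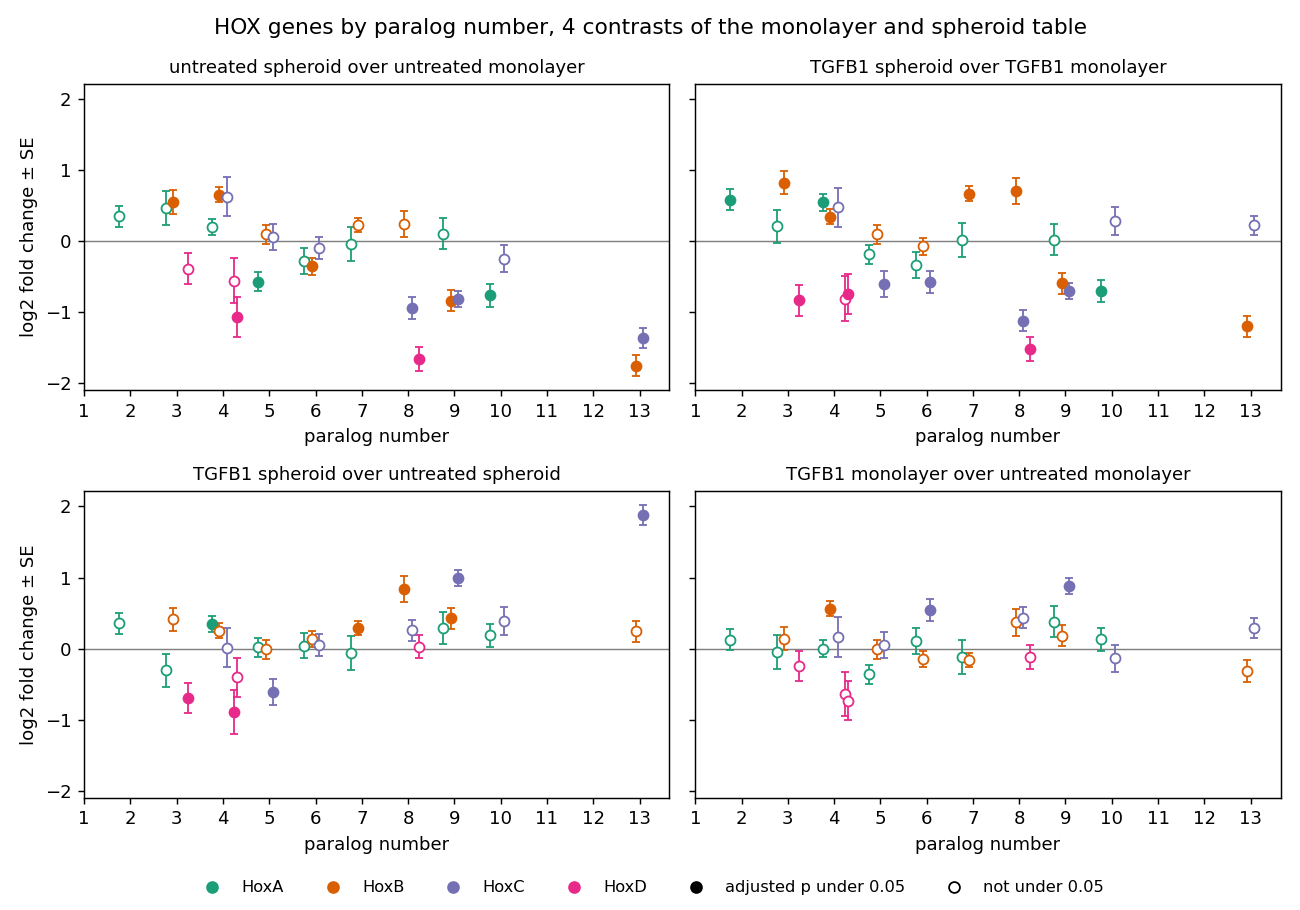
Log2 fold change ± SE of tested HOX rows (y axis) by paralog number (x axis) in 4 contrasts of the monolayer and spheroid table, coloured by cluster, filled where the adjusted p was under 0.05. In the untreated spheroid panel the called rows at paralogs 8 to 13 lie below 0, from Hoxa10 at -0.76 to Hoxb13 at -1.75, and in the TGFB1 spheroid over untreated spheroid panel Hoxc13 stands alone at 1.88.

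Among the posterior genes, Hoxb13 was at 0.635, 0.886 and 0.668 scaled TPM in TGFB1 spheroids and 0.442, 0.237 and 0.741 in untreated spheroids, against 2.79, 2.88 and 3.21 in TGFB1 monolayers and 4.18, 3.66 and 3.92 in untreated monolayers. Every spheroid library was below 1 and every monolayer library above 2, with no overlap. The difference between cultures was -1.75 ± 0.15 (log2 ± SE, adjusted p = 4.17e-06, limma) without TGFB1 and -1.20 ± 0.15 (adjusted p = 6.37e-05) with it. Hoxc13 was at 15.5, 22.0 and 15.4 in TGFB1 spheroids and 3.78, 4.00 and 4.23 in untreated spheroids, against 13.8, 15.7 and 14.9 in TGFB1 monolayers and 13.6, 11.0 and 11.2 in untreated monolayers. Only the untreated spheroids stood apart, below all 9 other libraries. Without TGFB1 Hoxc13 fell by 1.37 ± 0.14 on the log2 scale in spheroids (adjusted p = 1.43e-05, limma), and with TGFB1 it was not called.

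Hoxc9, expressed with Hoxc8 in the embryonic thorax, was at 17.5, 17.4 and 15.1 in TGFB1 spheroids and 6.90, 7.23 and 9.68 in untreated spheroids, against 27.1, 28.1 and 27.5 in TGFB1 monolayers and 13.9, 15.2 and 14.6 in untreated monolayers. Each spheroid group lay below its monolayer group, by -0.70 ± 0.12 with TGFB1 (adjusted p = 0.00045, limma) and -0.81 ± 0.12 without it (adjusted p = 0.000152). Hoxb9, a thoracic patterning gene, was at 40.7, 25.9 and 29.5 in TGFB1 spheroids and 21.9, 22.6 and 25.1 in untreated spheroids, against 47.5, 49.8 and 46.4 in TGFB1 monolayers and 48.4, 37.8 and 41.0 in untreated monolayers. Within each TGFB1 setting spheroids were lower without overlap, while TGFB1 spheroid 1, the high library of its group, was above untreated monolayer 2. The differences were -0.59 ± 0.15 with TGFB1 (adjusted p = 0.00606, limma) and -0.84 ± 0.15 without it (adjusted p = 0.000636). Hoxa10, needed for uterine receptivity, was at 13, 10.2 and 12.6 in TGFB1 spheroids and 9.59, 8.51 and 13.2 in untreated spheroids, against 17.0, 22.1 and 20.9 in TGFB1 monolayers and 16.4, 19.1 and 18.9 in untreated monolayers. It fell by 0.70 ± 0.16 on the log2 scale with TGFB1 (adjusted p = 0.00364, limma) and by 0.76 ± 0.16 without it (adjusted p = 0.00204), with no overlap in either case.

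Of the middle paralogs, Hoxd8 was at 57.0, 42.0 and 50.9 in TGFB1 spheroids and 46.4, 43.0 and 57.4 in untreated spheroids, against 109.6, 169 and 159 in TGFB1 monolayers and 154, 155 and 158 in untreated monolayers. The lowest monolayer, TGFB1 monolayer 1, was still above the highest spheroid library. Hoxd8 fell by 1.51 ± 0.17 with TGFB1 (adjusted p = 2.48e-05, limma) and by 1.66 ± 0.17 without it (adjusted p = 1.33e-05), both on the log2 scale. Hoxc8 was at 119, 76.5 and 79.5 in TGFB1 spheroids and 70.4, 70.1 and 86.1 in untreated spheroids, against 183, 209 and 199 in TGFB1 monolayers and 144, 144 and 148 in untreated monolayers. TGFB1 spheroid 1 was the high spheroid library, and no spheroid reached a monolayer. The differences were -1.12 ± 0.15 with TGFB1 (adjusted p = 0.000103, limma) and -0.94 ± 0.15 without it (adjusted p = 0.000331).

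Hoxb4, a gene of the neck vertebrae also known for expanding blood stem cells, was at 17.1, 17.1 and 15.9 in TGFB1 spheroids and 13.9, 13.6 and 14.0 in untreated spheroids, against 14.9, 12.6 and 11.5 in TGFB1 monolayers and 9.45, 7.75 and 8.18 in untreated monolayers. The untreated monolayers were the lowest group, with no overlap. Hoxb4 was higher in spheroids by 0.65 ± 0.11 without TGFB1 (adjusted p = 0.000374, limma) and by 0.35 ± 0.11 with it (adjusted p = 0.0177). The call with TGFB1 was lost without TGFB1 monolayer 2 or 3, and with each library scaled to the same sum. Hoxb3, a hindbrain gene in the embryo, was at 11.4, 7.42 and 8.17 in TGFB1 spheroids and 6.42, 6.86 and 5.96 in untreated spheroids, against 4.73, 5.18 and 3.90 in TGFB1 monolayers and 4.86, 3.91 and 3.50 in untreated monolayers. Spheroids were above monolayers in both settings, by 0.82 ± 0.16 with TGFB1 (adjusted p = 0.00156, limma) and by 0.55 ± 0.16 without it (adjusted p = 0.0144). The call without TGFB1 was lost when untreated monolayer 3 was left out.

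Hoxb8, a trunk gene also known for holding blood progenitors immature, was at 48.8, 29.9 and 29.2 in TGFB1 spheroids and 17.7, 17.4 and 22.9 in untreated spheroids, against 23.0, 20.4 and 20.0 in TGFB1 monolayers and 14.2, 17.3 and 17.0 in untreated monolayers. TGFB1 spheroids were above every other library, with TGFB1 spheroid 1 far above the other two. The difference between TGFB1 spheroids and TGFB1 monolayers was 0.70 ± 0.18 (adjusted p = 0.00773, limma). Hoxb7, which lies beside it, was at 33.4, 29.2 and 30.1 in TGFB1 spheroids and 25.0, 22.3 and 28.4 in untreated spheroids, against 17.7, 20.8 and 18.8 in TGFB1 monolayers and 21.7, 21.2 and 21.2 in untreated monolayers. It was higher in TGFB1 spheroids than in TGFB1 monolayers by 0.67 ± 0.10 (adjusted p = 0.000224, limma), without overlap. Hoxb6 was at 5.57, 6.25 and 6.13 in untreated spheroids, against 8.25, 6.85 and 8.77 in untreated monolayers. Its call (-0.35 ± 0.12, adjusted p = 0.023, limma) was lost without untreated spheroid 1, untreated monolayer 1 or untreated monolayer 3, and with each library scaled to the same sum.

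**Figure D3:**
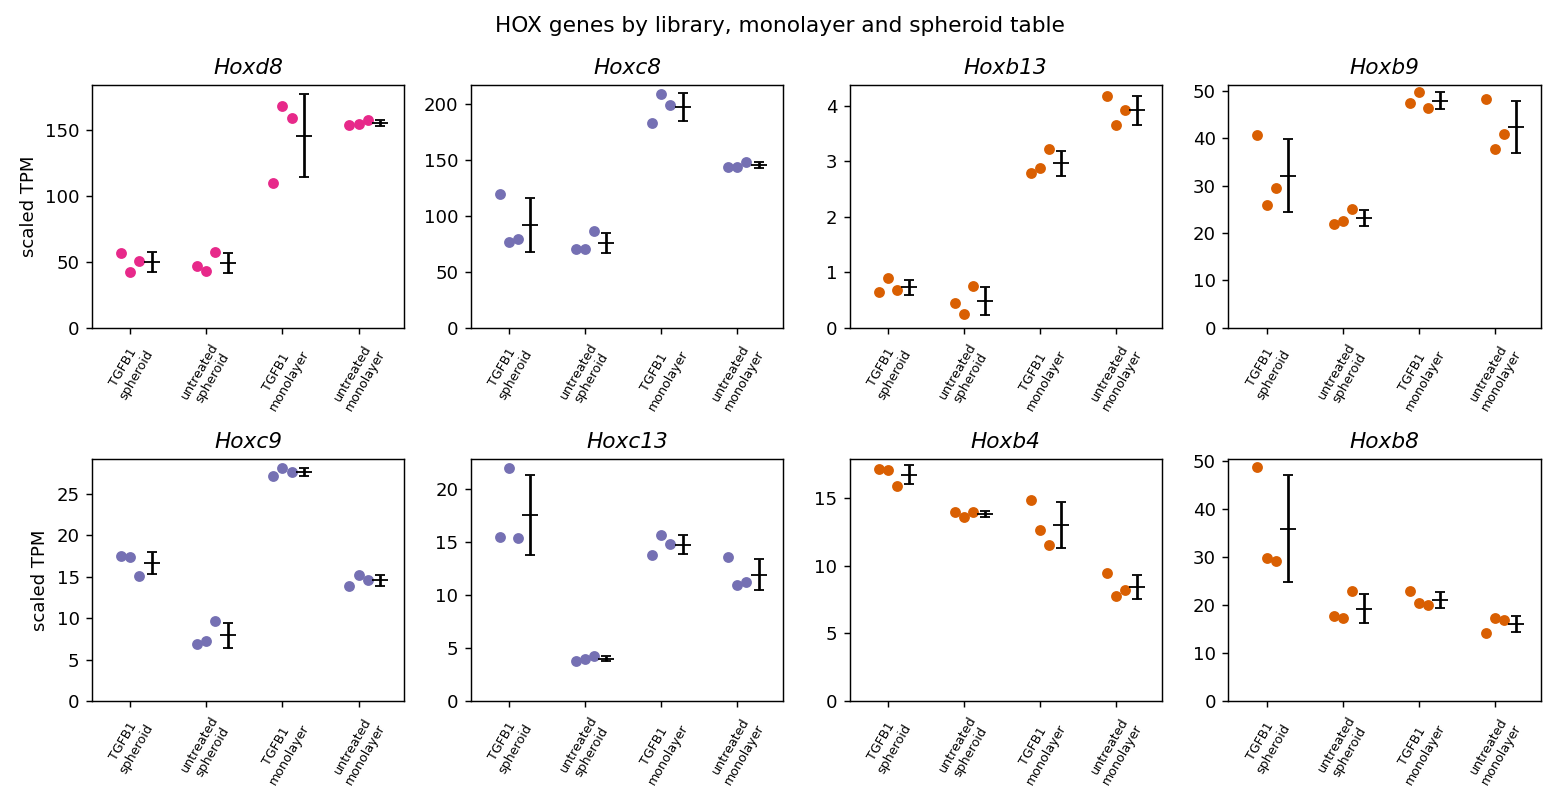
Scaled TPM (y axis) of 8 HOX genes in each of the 12 monolayer and spheroid libraries, 1 point per library in the order of replicate number, with mean ± SD beside each group. Hoxd8, Hoxc8 and Hoxb13 are lower in all spheroid than in all monolayer libraries, Hoxc13 is low in the untreated spheroids (4.00 ± 0.229), and Hoxb8 is highest in TGFB1 spheroids (36.0 ± 11.1).

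In HoxA, Hoxa5, a gene of lung and thoracic development, was at 4.22, 5.04 and 4.81 in untreated spheroids, against 6.94, 7.81 and 7.54 in untreated monolayers (-0.57 ± 0.13, adjusted p = 0.00396, limma), with no overlap. Hoxd3 was at 5.86, 3.96 and 6.85 in TGFB1 spheroids, against 7.43, 12.1 and 12.6 in TGFB1 monolayers (-0.83 ± 0.21, adjusted p = 0.00736, limma). Hoxc5 was at 1.37, 0.653 and 1.05 in TGFB1 spheroids, against 1.57, 2.69 and 2.00 in TGFB1 monolayers (-0.61 ± 0.18, adjusted p = 0.0159, limma), and that call was lost without TGFB1 spheroid 2 or TGFB1 monolayer 2. Of the Hoxd4 rows, ENSMUSG00000115956 was at 3.47, 1.53 and 1.87 in TGFB1 spheroids and 3.31, 2.60 and 3.84 in untreated spheroids, against 2.67, 4.69 and 6.26 in TGFB1 monolayers and 6.01, 8.99 and 8.90 in untreated monolayers. It fell without TGFB1 (-1.07 ± 0.28, adjusted p = 0.0072, limma). With TGFB1 the groups overlapped, and the call there (-0.74 ± 0.28, adjusted p = 0.0438, limma) was lost without TGFB1 spheroid 2 or 3, or TGFB1 monolayer 2 or 3. The other Hoxd4 row was not called in either setting. Its means were 10.3 in untreated spheroids against 15.4 in untreated monolayers, and 5.35 in TGFB1 spheroids against 9.54 in TGFB1 monolayers. Further calls with TGFB1 were Hoxa2 and Hoxa4 (0.58 and 0.54 higher) and Hoxc6 (-0.58 ± 0.16). Hoxa2 reached 1 scaled TPM only in spheroids and so entered the test through them.

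The makeup of the HOX signal also differed by culture (share of the summed HOX signal from each cluster). The summed HOX level was 440.4 ± 79.4 in TGFB1 spheroids and 367 ± 48.0 in untreated spheroids, against 681 ± 65.8 in TGFB1 monolayers and 591 ± 7.69 in untreated monolayers. HoxD held 14.4% ± 1.47 of it in TGFB1 spheroids and 19.6% ± 1.08 in untreated spheroids, against 24.9% ± 3.43 in TGFB1 monolayers and 32.4% ± 0.302 in untreated monolayers, with no overlap between any pair of groups. HoxB held 30.8% ± 0.448 and 26.6% ± 1.20 in TGFB1 and untreated spheroids, against 17.5% ± 1.94 and 18.1% ± 0.982 in TGFB1 and untreated monolayers. With 3 libraries a group, an exact two-sided permutation test cannot go below p = 0.1, so no p is given for these shares.

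**Figure D4:**
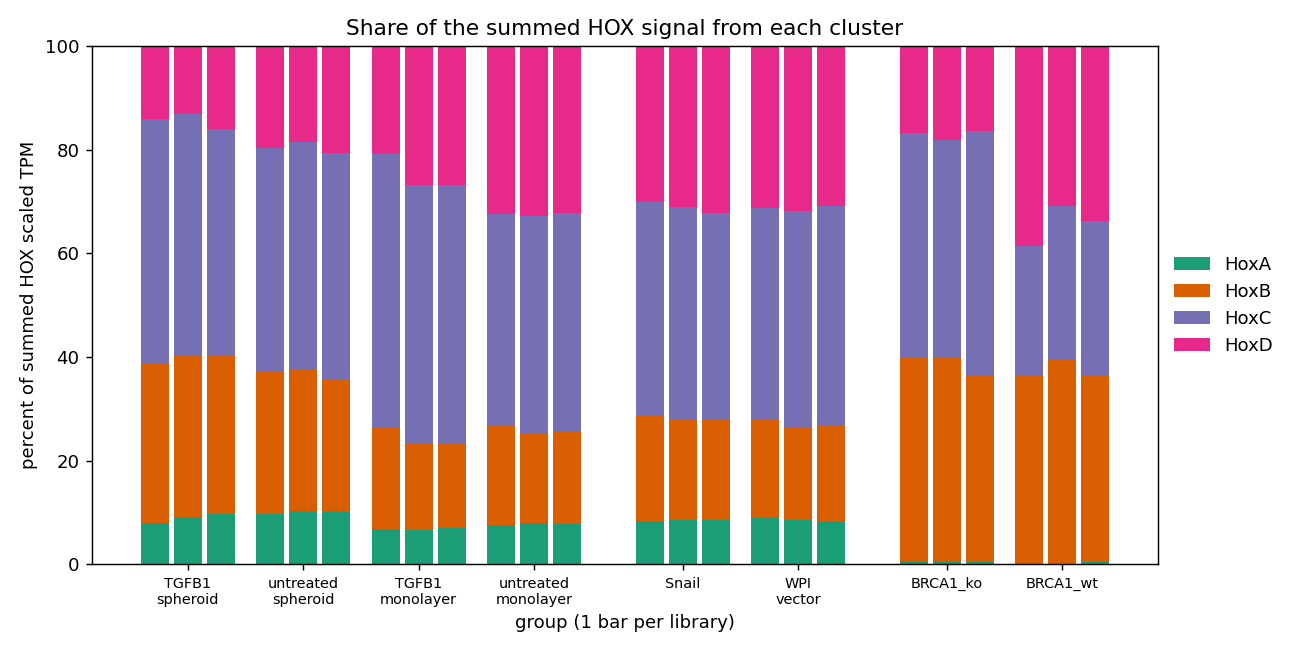
Percent of the summed HOX scaled TPM (y axis) held by HoxA, HoxB, HoxC and HoxD in each library (1 bar per library, grouped by condition; the 3 tables were normalized separately). The HoxD part is smallest in TGFB1 spheroids (14.4%) and largest among the m1102 spheroid and monolayer groups in untreated monolayers (32.4%), and in libraries labelled BRCA1_ko it is 17.1% ± 0.890, against 34.4% ± 3.86 in libraries labelled BRCA1_wt.

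TGFB1 alone moved few HOX genes in monolayers. Hoxc9, Hoxb4 and Hoxc6 were higher in TGFB1 monolayers than in untreated monolayers and 0 rows were lower (3 of 28, against 16.9% of all tested genes, 9.12% higher and 7.79% lower), and 6 rows had an unadjusted p under 0.05. The groups did not overlap for 13 of 28 HOX rows, against 47.5% of all tested genes. Hoxc9 rose by 0.88 ± 0.12 (adjusted p = 0.000814, limma) and Hoxb4 by 0.56 ± 0.11 (adjusted p = 0.00534), from the library values given above. Hoxc6, a gene of the forelimb and upper thoracic level, was at 88.9, 108 and 99.6 in TGFB1 monolayers, against 63.3, 67.8 and 71.8 in untreated monolayers. Its difference of 0.54 ± 0.16 (adjusted p = 0.0374, limma) was lost when any of the 6 libraries was left out. Hoxc8, at 197 ± 12.8 in TGFB1 monolayers against 145 ± 2.47 in untreated monolayers, did not pass the test. Of 9 tested ovarian surface and mesothelial markers 4 were lower in TGFB1 monolayers (sums 1129 to 1489, against 2187 to 2314 in untreated monolayers). Stroma Thy1 and Dcn were also lower (sums 826 to 862, against 1644 to 1871), as was oocyte Ddx4 (sums 6.78 to 9.04, against 10.2 to 23.8), and oviduct Foxj1 was higher (sums 2.80 to 3.80, against 2.21 to 4.19). Foxj1 reached 1 scaled TPM in TGFB1 monolayers and otherwise only in TGFB1 spheroid 1, so it entered the test through TGFB1 monolayers. The part of these markers in the result was not tested.

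In spheroids TGFB1 gave 6 HOX rows higher and 3 lower than in untreated spheroids (9 of 28, against 35.6% of all tested genes, 18.8% higher and 16.8% lower). The groups did not overlap for 12 of 28 HOX rows, against 43.9% of all tested genes. Scaling each library to the same sum gave 3 higher and 3 lower, and moved the median of all tested genes to -0.16, against 0.003 as deposited. Hoxc13 showed the largest difference, with 4.40-fold higher mean levels in TGFB1 spheroids (1.88 ± 0.14, adjusted p = 6.24e-06, limma). Hoxc9 was higher by 0.99 ± 0.12 (adjusted p = 0.000144) and Hoxb8 by 0.83 ± 0.18 (adjusted p = 0.00526). These 3 calls held under every alternative run, while the other 6 did not.

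Hoxb9 (0.43 ± 0.15, adjusted p = 0.0425, limma) and Hoxb7 (0.29 ± 0.10, adjusted p = 0.0441) rested on the values printed above, with Hoxb7 and Hoxb9 each lost without TGFB1 spheroid 1 or 3 or untreated spheroid 1 or 2, and Hoxb7 also without TGFB1 spheroid 2. Hoxa4 was at 5.14, 4.70 and 5.85 in TGFB1 spheroids, against 3.68, 4.09 and 3.94 in untreated spheroids (0.34 ± 0.12, adjusted p = 0.0388, limma), and its call held only when the library left out was TGFB1 spheroid 2. Among the lower rows, Hoxd3 was at 5.86, 3.96 and 6.85 in TGFB1 spheroids, against 8.66, 8.27 and 11.6 in untreated spheroids (-0.69 ± 0.21, adjusted p = 0.0279, limma). It was lost without TGFB1 spheroid 2 or untreated spheroid 3. The Hoxd4 row ENSMUSG00000101174 was at 7.88, 2.58 and 5.60 in TGFB1 spheroids, against 8.77, 8.06 and 14.0 in untreated spheroids (-0.89 ± 0.31, adjusted p = 0.0474, limma), and held only without TGFB1 spheroid 1. The other Hoxd4 row had a mean of 2.29 in TGFB1 spheroids, against 3.25 in untreated spheroids, and was not called. Hoxc5, at 1.37, 0.653 and 1.05 in TGFB1 spheroids against 1.75, 2.22 and 2.23 in untreated spheroids (-0.61 ± 0.18, adjusted p = 0.023, limma), was lost without TGFB1 spheroid 2 or untreated spheroid 2 or 3. Endothelial Cdh5 moved with TGFB1 here: it was higher in TGFB1 spheroids, 1 of 2 tested markers, and the sum of the 4 endothelial markers was 25.8 to 52.3 in TGFB1 spheroids, against 1.76 to 5.61 in untreated spheroids. Of 9 tested ovarian surface and mesothelial markers 7 were lower in TGFB1 spheroids, with list sums of 218 to 439.5, against 237 to 433 in untreated spheroids. Stroma Pdgfrb and Dcn were higher in TGFB1 spheroids (sums 532 to 1327, against 369 to 529), and granulosa Inha was lower (sums 39.9 to 43.2, against 64.9 to 68.2). Pdgfrb entered the test through TGFB1 spheroids, since otherwise only TGFB1 monolayer 1 reached 1 scaled TPM. The part of these markers in the result was not tested.

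The TGFB1 effect differed between cultures for 1 tested HOX row, Hoxc13. Its TGFB1 effect was larger in spheroids than in monolayers by 1.59 ± 0.20 on the log2 scale (adjusted p = 0.000629, limma interaction), and the call held under all 18 alternatives (1.38 to 1.78). The 3 untreated spheroids were at 3.78 to 4.23 scaled TPM, against 11.0 to 22.0 in the other 9 libraries. Spheroid cells had TGFB1 for 4 days before low attachment, and no duration is given here for TGFB1 monolayers. Culture and TGFB1 schedule therefore cannot be told apart. Over all tested genes 15.8% were called, 8.72% higher and 7.11% lower, against 1 of 28 HOX rows. With each library scaled to the same sum, Hoxb4 was also called, lower, and the median of all tested genes moved to -0.21. In the authors' deposited table the Hoxc13 interaction coefficient was 1.85 on the log2 scale (deposited q-value 1.87e-07, over the 3 terms of that model at once). Hoxc9, by contrast, had TGFB1 effects of 0.99 ± 0.12 in spheroids and 0.88 ± 0.12 in monolayers, and the test of their difference did not call it. Cdh5, Dcn and Pdgfrb were called higher and Lrrn4 lower in the same interaction, and the part of these markers was not tested. Pdgfrb entered that test through TGFB1 spheroids.

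A single HOX gene was called between Snail and vector libraries. Of 27 tested rows for 26 genes, 1 was higher in Snail libraries and 0 lower, against 1.72% of 12240 tested genes (0.572% higher, 1.14% lower), and 2 HOX rows had an unadjusted p under 0.05. The groups did not overlap for 2 of 27 HOX rows, against 20.6% of all tested genes. The row was Hoxb13, at 7.05, 7.87 and 5.64 scaled TPM in Snail libraries, against 4.14, 2.92 and 3.18 in WPI vector libraries. All 3 Snail libraries were above the vector ones, with a 2.01-fold higher mean. The limma difference was 0.83 ± 0.15 (adjusted p = 0.0456), and it was lost under 9 of 12 alternatives, among them every left-out library, with adjusted p between 0.0327 and 0.18. In the authors' deposited table Hoxb13 had 1.01 on the log2 scale and a deposited q-value of 6.88e-05.

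The other row with an unadjusted p under 0.05 was Hoxb3, at 5.57, 5.89 and 6.27 in Snail libraries, against 4.44, 4.87 and 4.49 in WPI vector libraries. The high genes had near levels in both groups: Hoxd8 was at 160.3 ± 7.02 in Snail libraries, against 154 ± 4.68 in WPI vector libraries. Hoxc8 was at 147 ± 7.33 in Snail libraries, against 158 ± 8.42 in WPI vector libraries, and neither passed the test. The summed HOX level was 615 ± 20.8 in Snail libraries, against 604 ± 10.3 in WPI vector libraries, and HoxD held 31.2% ± 1.05 of it, against 31.3% ± 0.541. Of the 13 rows not tested, Hoxa9 was at 1.42, 0.787 and 1.51 in Snail libraries, against 0.861, 0.723 and 0.852 in WPI vector libraries. Of 9 tested ovarian surface and mesothelial markers Msln and Krt18 were lower and Upk3b higher in Snail libraries (sums 2104 to 2433, against 2239 to 2506), and their part in the Hoxb13 result was not tested.

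The line mOSE_BRCA1_fl carried another HOX pattern, given side by side with m1102 and without a test, since the lines were in tables normalized separately. All 11 HoxA genes were under 1 scaled TPM in all 6 of its libraries, whereas in the monolayer and spheroid table Hoxa10 reached 8.51 to 22.1. Hoxc12, listed at 0 in all m1102 libraries, was at 3.36, 2.04 and 2.03 in libraries labelled BRCA1_ko, against 0.646, 2.46 and 0.380 in libraries labelled BRCA1_wt. Hoxb9, Hoxb7, Hoxc8, Hoxc6 and Hoxd8 were again among the highest. Of the 40 rows 20 were tested, for 19 genes.

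Between the libraries labelled BRCA1_ko and those labelled BRCA1_wt, the called HoxC and HoxD rows moved in opposite directions (values by library in the BRCA1 table). Hoxc5, Hoxc13 and Hoxc6 were higher in libraries labelled BRCA1_ko, by 6.58-fold, 3.26-fold and 2.58-fold. Hoxd9 and the Hoxd4 row ENSMUSG00000101174 were lower, with means 7.44-fold and 3.37-fold below those in libraries labelled BRCA1_wt. That made 3 rows higher and 2 lower of 20, against 14.3% of 12775 tested genes (9.04% higher, 5.27% lower). The groups did not overlap for 10 of 20 HOX rows, against 44.9% of all tested genes. The median log2 difference was 0.80 over 8 tested HoxC rows, -0.53 over 5 HoxD rows and 0.19 over 7 HoxB rows, against 0.17 over all tested genes. HoxC held 44.2% ± 2.73 of the summed HOX level in libraries labelled BRCA1_ko, against 28.1% ± 2.64 in those labelled BRCA1_wt, and the sums themselves were 272 ± 9.66 and 244 ± 5.77 in libraries labelled BRCA1_ko and BRCA1_wt. Scaling each library to the same sum left 1 row higher and 1 lower and moved the median of all genes to 0.63. Without BRCA1_wt replicate 2, 8 rows were higher and 4 lower (12 of 20), and without any other library 1 or 2 rows were called.

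**Figure D5:**
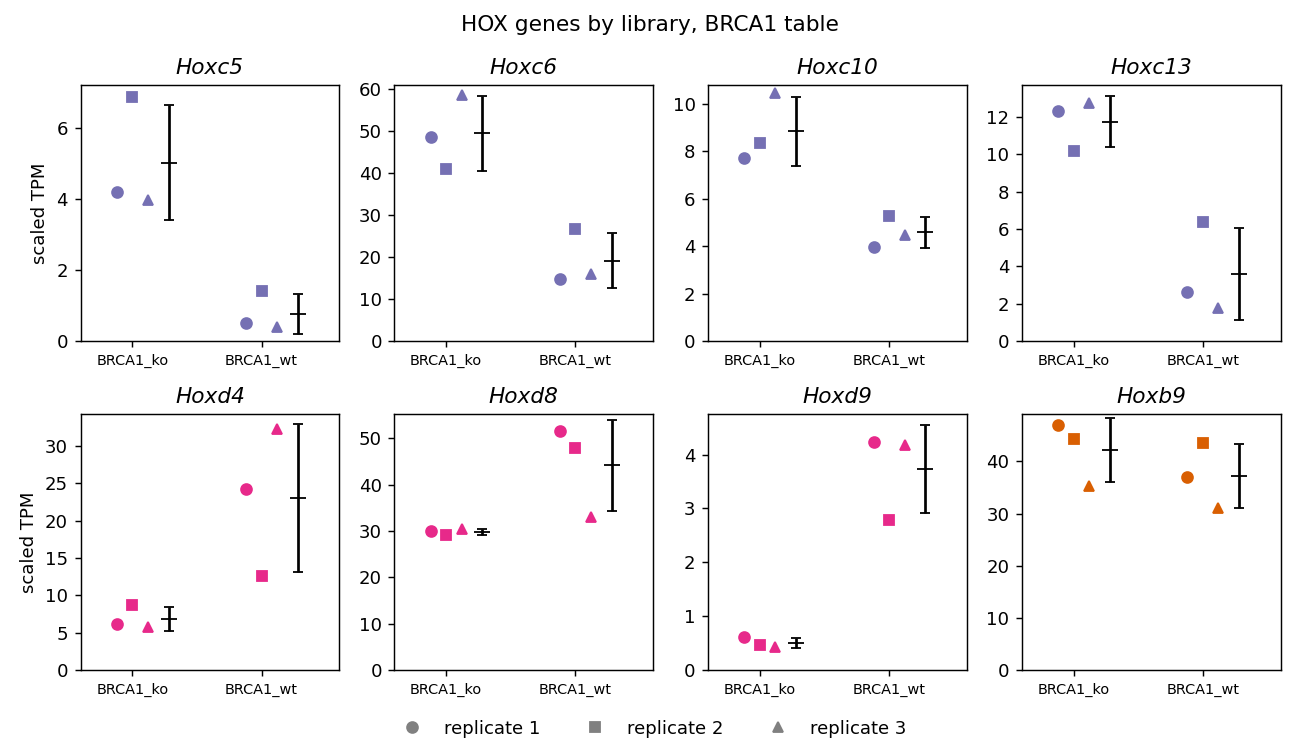
Scaled TPM (y axis) of 8 HOX genes in each library labelled BRCA1_ko and BRCA1_wt, with the replicate number as marker shape and mean ± SD beside the points; Hoxd4 is the row ENSMUSG00000101174. The HoxC genes shown are higher and the HoxD genes lower in the libraries labelled BRCA1_ko, without overlap, and replicate 2 labelled BRCA1_wt (squares) lies nearest to them for Hoxc5, Hoxc6, Hoxc10, Hoxc13, Hoxd4 and Hoxd9.

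Hoxd9, a limb and lumbar gene, was at 0.613, 0.470 and 0.422 in libraries labelled BRCA1_ko, against 4.24, 2.79 and 4.17 in libraries labelled BRCA1_wt. The groups were far apart, and its call (-1.64 ± 0.22, adjusted p = 0.00617, limma) held under the 11 alternatives that tested it. Hoxd9 reached 1 scaled TPM only in libraries labelled BRCA1_wt and so entered the test through them. The Hoxd4 row ENSMUSG00000101174 was at 6.12, 8.73 and 5.70 in libraries labelled BRCA1_ko, against 24.3, 12.6 and 32.3 in libraries labelled BRCA1_wt (-1.54 ± 0.37, adjusted p = 0.0402, limma). Replicate 2 labelled BRCA1_wt was the low one of its group. The call was lost without any other single library, and with the same-sum scaling. The other Hoxd4 row had a mean of 3.58 in libraries labelled BRCA1_ko, against 4.93 in libraries labelled BRCA1_wt, and was not called. Hoxd8 was at 29.9, 29.1 and 30.5 in libraries labelled BRCA1_ko, against 51.6, 47.8 and 33.0 in libraries labelled BRCA1_wt, and did not pass the test.

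Hoxc5 was at 4.20, 6.88 and 3.97 in libraries labelled BRCA1_ko, against 0.495, 1.41 and 0.383 in libraries labelled BRCA1_wt (1.78 ± 0.31, adjusted p = 0.0151, limma). The call was lost without any BRCA1_ko replicate or without BRCA1_wt replicate 1. Hoxc6 was at 48.6, 40.9 and 58.6 in libraries labelled BRCA1_ko, against 14.8, 26.7 and 15.8 in libraries labelled BRCA1_wt (1.36 ± 0.29, adjusted p = 0.0299, limma). Hoxc13 was at 12.3, 10.2 and 12.7 in libraries labelled BRCA1_ko, against 2.65, 6.37 and 1.77 in libraries labelled BRCA1_wt (1.59 ± 0.38, adjusted p = 0.0401, limma). Neither of these last genes overlapped between groups, and both calls were lost without any library other than BRCA1_wt replicate 2, and with the same-sum scaling. Hoxc10, a hindlimb gene, was at 7.72, 8.33 and 10.5 in libraries labelled BRCA1_ko, against 3.96, 5.29 and 4.49 in libraries labelled BRCA1_wt, and was not called. Hoxc9 went the other way, with means of 3.64 in libraries labelled BRCA1_ko and 6.86 in libraries labelled BRCA1_wt. In the same order, Hoxc8 was at 36.3 and 30.9, and Hoxc4 at 3.10 and 1.56. None of these was called, and Hoxc8 and Hoxc9 overlapped between groups.

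Hoxb13 was not tested in this table, with 0.774, 1.03 and 1.15 in libraries labelled BRCA1_ko, against 0.0245, 0.0392 and 0.0399 in libraries labelled BRCA1_wt. In the authors' deposited table its difference was 4.07 on the log2 scale, with a deposited q-value of 0.000168. The HoxB genes with high levels were near each other: Hoxb9 was at 42.1 ± 6.14 in libraries labelled BRCA1_ko, against 37.2 ± 6.16 in libraries labelled BRCA1_wt, and Hoxb7 at 24.7 ± 1.75, against 24.7 ± 0.548. Markers moved with the labels. Ddx4, the germ cell helicase, was at 0.682, 0.538 and 0.988 in libraries labelled BRCA1_ko, against 25.0, 10.6 and 22.2 in libraries labelled BRCA1_wt, with Dazl at 0 in all 6, and the oocyte list sum was 1.40 to 2.06, against 10.9 to 25.6. Of the 10 ovarian surface and mesothelial markers, Krt8 and Krt18 were lower and Msln higher in libraries labelled BRCA1_ko, with list sums of 2911 to 3044, against 2973 to 3379. Ddx4 reached 1 scaled TPM only in libraries labelled BRCA1_wt, and stroma Lum only in those labelled BRCA1_ko, so each entered the test through that group. Granulosa and theca markers summed to 129 to 225 in libraries labelled BRCA1_ko, against 46.4 to 50.2 (1 of 2 tested higher, Inha), and stroma markers to 753 to 914, against 344 to 622 (1 of 4 tested higher, Lum). Their part in the HOX results was not tested.

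The HOX cofactors of the TALE class, PBX, MEIS and PKNOX proteins that bind DNA beside HOX proteins, were set beside the HOX genes. In untreated spheroids 3 of 8 tested were higher than in untreated monolayers and 1 lower: Pknox2 (1.34 ± 0.31), Meis3 (0.46 ± 0.13) and Pbx2 (0.44 ± 0.10) were higher, and Pbx3 (-0.75 ± 0.13, 10.8 against 18.6 scaled TPM) lower, with 55.2% of all tested genes called. Pknox2 reached 1 scaled TPM only in spheroids and so entered the test through them. TGFB1 spheroids had more Pbx3 than untreated spheroids (25.0 against 10.8, log2 1.15 ± 0.13) and more Meis3 (0.70 ± 0.13), 2 of 8 higher and 0 lower, with 35.6% of all tested genes called. Pbx3 and Hoxc13 were both called in the interaction (Pbx3 1.09 ± 0.18, adjusted p = 0.00328, limma), where 1 of 8 cofactors and 15.8% of all tested genes were called. In monolayers with TGFB1 only Meis3 of the 8 was called (0.69 ± 0.13), against 16.9% of all tested genes. Of all 9 cofactors tested in the BRCA1 table, only Pknox2 was called, at 70.0 in libraries labelled BRCA1_ko against 8.0 in libraries labelled BRCA1_wt (3.11 ± 0.37, adjusted p = 0.00455, limma), with 14.3% of all tested genes called. In the Snail table limma called 0 of 7 cofactors, against 1.72% of all tested genes, with 2 at an unadjusted p under 0.05.

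Chromatin regulators of the clusters were also counted. Polycomb proteins hold HOX genes silent, and trithorax proteins keep them active. In untreated spheroids against untreated monolayers, 9 of 25 tested Polycomb genes were higher and 7 lower, led by Cbx7 (1.81 ± 0.26), the H3K27 methyltransferase gene Ezh1 (1.42 ± 0.19), Phf1 (1.30 ± 0.14) and Cbx6 (-1.23 ± 0.18). That is near the 55.2% of all tested genes called there (27.6% higher, 27.7% lower). Of 13 trithorax and H3K27 demethylase rows 8 were higher and 3 lower there, with the H3K4 methyltransferase genes Kmt2a (1.08 ± 0.12) and Kmt2d (0.96 ± 0.13) higher and the H3K79 methyltransferase gene Dot1l (-1.15 ± 0.15) lower. TGFB1 in spheroids lowered 5 of the 13 trithorax rows and raised 0, against 16.8% of all tested genes lower. In either direction 35.6% of all tested genes were called. Among the lower rows were Kmt2c (-0.70 ± 0.17), Kmt2a (-0.47 ± 0.12) and Kmt2d (-0.43 ± 0.13). The 13 rows hold Men1 as 2 identical rows. TGFB1 in spheroids gave 4 Polycomb genes higher and 7 lower, with Cbx7 (-1.39 ± 0.26), Phf1 (-0.98 ± 0.14) and Ezh1 (-0.77 ± 0.19) lower in TGFB1 spheroids. In the interaction limma called Kmt2a and Ash2l, both lower, and 0 of 25 Polycomb genes, with 4 at an unadjusted p under 0.05. Over all tested genes 15.8% were called there, 7.11% lower. In the Snail comparison 0 of 25 Polycomb genes and 0 of 13 trithorax rows were called by limma (1 and 0 at an unadjusted p under 0.05), against 1.72% of all tested genes. In the BRCA1 table it also called 0 of both lists, against 14.3% of all tested genes. There 11 Polycomb genes and 6 trithorax rows had an unadjusted p under 0.05, as did 5281 of all 12775 tested genes.

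Retinoic acid, made by ALDH1A enzymes and cleared by CYP26 enzymes, switches on anterior HOX genes in the embryo. Of 12 tested rows in the list of such upstream genes, 5 were higher and 2 lower in untreated spheroids than in untreated monolayers, near the 55.2% of all tested genes called. The 5 include 2 identical rows of Egr2. Cyp26b1 (1.54 ± 0.29), the TGFB family ligand gene Gdf11 (1.56 ± 0.23) and Crabp2 (1.13 ± 0.36) were higher, and the retinol transporter gene Stra6 (-2.12 ± 0.51) lower. Cyp26b1 reached 1 scaled TPM only in untreated spheroids and Crabp2 only in spheroids, so each entered the test through them. Aldh1a1 was lower in TGFB1 spheroids than in untreated spheroids (96.8 against 631 scaled TPM, log2 -3.32 ± 0.62) and Egr2, which drives hindbrain HOX genes, higher (45.9 against 7.86, 2.41 ± 0.26). The count there was 3 rows each way, again with both Egr2 rows, and 35.6% of all tested genes were called. In libraries labelled BRCA1_ko, Rarb (1.63 ± 0.26) and Aldh1a2 (1.28 ± 0.27) were higher and Aldh1a1 (-1.27 ± 0.27) lower than in libraries labelled BRCA1_wt, and the calls were 2 of 12 each way, against 9.04% of all tested genes higher and 5.27% lower. In the Snail table limma called 0 of 9, against 1.72% of all tested genes, with 1 at an unadjusted p under 0.05.

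Genes just outside the clusters were read as well, since they share the chromosome region. Of 14 tested, 2 were higher and 6 lower in untreated spheroids than in untreated monolayers, near the 55.2% of all tested genes called. Mtx2, which lies beside HoxD, fell to 78.2 scaled TPM in untreated spheroids, against 145 in untreated monolayers (-0.89 ± 0.07), and Hnrnpa1, near HoxC, fell to 436, against 669.9 (-0.62 ± 0.09). Nfe2l1, near HoxB, was higher (1.22 ± 0.19). Between the BRCA1 libraries 1 of 14 was called, Nfe2l1 (1.14 ± 0.29), against 14.3% of all tested genes. Limma called 0 of 14 in the interaction and in the Snail table, with 3 at an unadjusted p under 0.05 in each. Over all tested genes 15.8% and 1.72% were called in these. Other homeobox genes of position gave 3 higher and 3 lower of 9 in untreated spheroids against untreated monolayers (55.2% of all tested genes), with Pax8 (2.25 ± 0.54), the Mullerian and kidney gene, higher and Lhx2 (-1.86 ± 0.27) lower. In TGFB1 spheroids Msx1 (1.39 ± 0.20) and Irx3 (0.97 ± 0.14) of 9 tested were higher than in untreated spheroids (18.8% of all tested genes). Pax8 reached 1 scaled TPM only in spheroids and Irx3 only in TGFB1 spheroids, so each entered the test through them. In libraries labelled BRCA1_ko Emx2 (2.19 ± 0.25), needed for the urogenital tract, Irx3 (2.04 ± 0.29) and Msx1 (1.67 ± 0.24) were higher than in libraries labelled BRCA1_wt, 3 of 11 tested (9.04% of all genes), with 0 lower and 5 at an unadjusted p under 0.05. Irx3 and Msx1 reached 1 scaled TPM only in libraries labelled BRCA1_ko and so entered the test through them. In the Snail table limma called 0 of 7, against 1.72% of all tested genes, with 2 at an unadjusted p under 0.05.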

How the data were processed

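Poly(A)-selected RNA of 24 libraries was sequenced, 3 per group. Per the submitters' processing notes, kallisto 0.44.0, sleuth 0.30.0 and the mouse build GRCm38 were used. The authors deposited 1 table of signal per experiment, TPM scaled by a factor per library, which is why column sums differ. The authors also deposited, for every gene, a p-value, a q-value and model coefficients in natural log units, turned here into log2. Gene identifiers matched GENCODE M21 for 98.1% to 98.2% of rows, and 0 columns belonged to no sample.

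Genes with at least 1 scaled TPM in at least 3 libraries of a table entered limma (version 3.58.1, R 4.3.3; lmFit, then eBayes with trend) as log2(scaled TPM + 1), with 1 fit of 12 libraries for monolayers and spheroids. This scale understates changes of low genes. A gene that reaches 1 scaled TPM in only 1 group enters the test through that group, and its call depends on that. Calls are two-sided at a Benjamini-Hochberg adjusted p under 0.05 over all tested genes. The planned unit was TPM, and the same test was used for scaled TPM. The fit was tested on simulated data. Tables were handled in Python 3.11.15 (pandas 2.3.3, numpy 2.4.6) and plotted with matplotlib 3.10.9.

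The members, gene lists and tests were chosen with earlier results of these data known. Values in every library are printed for each called HOX gene (at most 12 per comparison, by size of difference), and at most 4 called genes per other list. Alternatives were pseudocount 0.1, no filter, a minimum of 5, each library scaled to the same sum, a replicate block, quality weights, only the 6 libraries compared, and leaving out each library. HOX noncoding RNAs were not analysed here. Some genes that the counts and sums include are not reported here.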

Additional observations from a re-analysis of the deposited data

Results flagged for a closer look

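The TGFB1 effect on Hoxc13 differed between cultures: it was larger in spheroids than in monolayers by 1.59 ± 0.20 on the log2 scale (limma interaction, adjusted p = 0.000629), with 3.78 to 4.23 scaled TPM in the 3 untreated spheroids. The spheroid libraries were not part of the re-analysed set that holds all monolayers, so culture and origin cannot be told apart. Nor can culture and TGFB1 schedule, since spheroid cells had TGFB1 before low attachment and no duration is given here for monolayers.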

How the results depend on the processing

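Over single HOX genes 2463 values were recomputed: 2269 kept their side of the threshold, 126 lost a call and 68 gained one. Of values called in either fit, 0 turned direction. Changes of direction in values called in neither fit were not counted. The counts of called HOX rows moved as follows, and the cause was not tested. With library quality weights they were 20 for spheroids without TGFB1, 12 for TGFB1 in monolayers, 7 for the interaction and 18 for BRCA1 (all genes: 6431, 4385 and 11536 for the last 3). With only the 6 libraries compared, TGFB1 gave 6 HOX rows in monolayers and 3 in spheroids (all genes: 3585 and 2769). With no filter there were 5 for TGFB1 in spheroids and 0 for Snail (all genes: 54 for Snail, 1091 for BRCA1). A minimum of 5, which leaves 12 HOX rows tested in the BRCA1 table, gave 3 for BRCA1 (all genes 1050). With each library scaled to the same sum the interaction had 2 HOX rows, Snail 0 and BRCA1 2 (all genes 878). All counts are from limma, and in the fit as reported 2 HOX rows had an unadjusted p under 0.05 for Snail. Leaving out 1 library at a time gave 10 to 13 HOX rows for spheroids without TGFB1, 2 for TGFB1 in monolayers (2 to 2), 4 to 7 for TGFB1 in spheroids, 13 to 19 for spheroids with TGFB1, 1 to 3 for the interaction, 0 for Snail (0 to 0) and 1 to 12 for BRCA1. Over all genes the ranges were 6401 to 7599, 1234 to 1751, 3295 to 4894, 6063 to 6923, 1402 to 2741, 23 to 75 and 284 to 8420 in the same order. Same-numbered libraries did not deviate together (r between -0.32 and 0.33), so the replicate block is given only here: it gave 0 HOX rows for Snail and 2 for BRCA1 (all genes 16 and 433). The depth behind each value is unknown, and genes near 1 scaled TPM are limited by the pseudocount.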
